A study of Mus musculus with 7 samples.

Results

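The tumour necrosis factor (TNF) superfamily was examined in RNA of B16F10 tumours. B16F10 is a mouse melanoma line that makes pigment, and it was grafted into C57BL/6J females. Members were all rows of the gene count table whose symbol was of the form Tnfsf or Tnfrsf with a number, together with Tnf, Lta, Ltb, Ltbr, Fas, Cd40, Cd40lg, Cd27 and Cd70. This gave 40 of 21878 genes, 16 encoding ligands and 24 encoding receptors. There were 4 libraries from tumours of mice that received Zelnorm and 3 from tumours of the control group (NC). Oral doses of Zelnorm were 1.25 mg/kg at intervals of 2 days. Zelnorm is tegaserod, a drug that partially activates the 5-HT4 receptor for serotonin. Both groups carried the same graft in the same strain and sex, so the data describe 1 cell line, and the labels state neither what the controls received nor the age of the mice. Whether every library had a separate mouse is not stated either, so the p-values rest on a spread between samples that may be technical. The libraries are named by their columns, MBZ_9, MBZ_11, MBZ_13 and MBZ_15 for Zelnorm and NC_5, NC_6 and NC_10 for NC.

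Ligands of this family are mostly trimeric membrane proteins of leukocytes that can be shed, and their receptors sit on leukocytes, stroma and tumour cells. One set of receptors carries a death domain and can couple to caspases, and another set recruits TRAF adaptors and activates NF-kappaB, while decoy receptors bind ligand without a full signalling tail. In tumours the family is known for TNF and lymphotoxin signalling, for killing of tumour cells through TRAIL and Fas, and for co-stimulation of T cells through CD27, OX40, GITR and CD137.

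The libraries held 16903598 to 19666598 (Zelnorm) and 18079258 to 19547390 (NC) counts. A floor of 3 counts corresponded to 0.152 to 0.178 CPM (read counts scaled to the TMM-adjusted library size) over all 7 libraries and covers counting error only. Markers of the labelled cell type were all detected, and the summed level of the 7 melanocyte and melanoma genes was 26533 to 28689 CPM in Zelnorm and 24500 to 27720 CPM in NC libraries. Marker sets of macrophages and of T cells differed between libraries and are given below beside some of the members. NC_10 stood apart from the other NC libraries, with 462 CPM summed over 10 macrophage and monocyte markers against 248 CPM in NC_5 and 225 CPM in NC_6. Of 12997 genes tested with edgeR's quasi-likelihood test, 4 (0.0308%) passed a Benjamini-Hochberg adjusted p under 0.05, 4 higher and 0 lower in Zelnorm.

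Stretches before a transcription start are shown for 5 members described below, Tnfrsf1b, Ltb, Tnfsf10, Tnf and Tnfrsf14. They were among the 8 members that were higher in Zelnorm tumours at an unadjusted edgeR p under 0.05. The others of the 8, Tnfrsf9, Cd27 and Tnfsf14, also had windows and are not shown. Tnfrsf10b, which was lower at this threshold, had no entry. Each stretch shown is the 250 bases before a transcription start in RefSeq (build GRCm38.p6), written 5′ to 3′ on the strand of the gene. The window of Tnfrsf14 lies inside the span of its gene (154918487 to 154928620), before a start that is not the outermost. Capitals mark matches on either strand to 3 motifs: GGGA, any 2 bases, TTCC (an NF-kappaB site), GAAA, any 2 bases, GAAA (the interferon-stimulated response element, ISRE), and TTC, any 3 bases, GAA (the STAT-binding GAS element). No matches overlapped in these windows.
Ltb, chr17:35194257-35194506, plus strand: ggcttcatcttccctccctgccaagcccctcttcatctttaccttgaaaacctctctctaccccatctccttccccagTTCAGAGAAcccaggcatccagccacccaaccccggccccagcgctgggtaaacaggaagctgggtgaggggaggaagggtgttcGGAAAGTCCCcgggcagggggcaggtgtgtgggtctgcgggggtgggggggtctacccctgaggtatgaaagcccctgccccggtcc
Tnfrsf1b, chr4:145246871-145247120, minus strand: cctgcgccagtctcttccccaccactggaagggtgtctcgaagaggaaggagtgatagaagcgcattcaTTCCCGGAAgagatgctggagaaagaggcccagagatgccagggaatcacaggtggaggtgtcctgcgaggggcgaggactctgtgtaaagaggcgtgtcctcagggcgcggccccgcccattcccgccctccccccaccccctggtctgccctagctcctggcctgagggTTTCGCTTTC
Tnfrsf14, chr4:154928078-154928327, minus strand: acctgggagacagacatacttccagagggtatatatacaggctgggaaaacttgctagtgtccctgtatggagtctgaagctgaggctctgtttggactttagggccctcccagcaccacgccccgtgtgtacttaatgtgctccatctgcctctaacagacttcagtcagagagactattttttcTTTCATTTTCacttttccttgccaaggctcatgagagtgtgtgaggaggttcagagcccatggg
Tnfsf10, chr3:27316827-27317076, plus strand: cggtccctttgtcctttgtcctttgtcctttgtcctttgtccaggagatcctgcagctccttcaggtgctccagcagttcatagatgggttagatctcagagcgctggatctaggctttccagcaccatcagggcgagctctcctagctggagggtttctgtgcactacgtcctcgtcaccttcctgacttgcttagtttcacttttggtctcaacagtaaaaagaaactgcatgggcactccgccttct
Tnf, chr17:35202008-35202257, minus strand: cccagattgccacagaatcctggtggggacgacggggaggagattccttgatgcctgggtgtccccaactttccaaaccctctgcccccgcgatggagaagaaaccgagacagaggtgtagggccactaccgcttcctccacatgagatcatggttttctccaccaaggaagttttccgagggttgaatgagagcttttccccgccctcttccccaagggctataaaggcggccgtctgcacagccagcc

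The window of Ltb held an NF-kappaB match at position -87 and a GAS match at -172, counted from the transcription start. The window of Tnfrsf1b held an ISRE match at -10 and a GAS match at -181, and that of Tnfrsf14 an ISRE match at -64. The windows of Tnfsf10 and Tnf held no match to these letters, nor did those of Cd27 and Tnfsf14, which are not shown. Over the 30 members with an entry, which had 34 windows, 1 window (2.94%) held the NF-kappaB letters, against 397 of 32851 windows of all genes (1.21%). The ISRE letters were in 4 member windows (11.8%), against 2.98% of all windows, and the GAS letters in 8 (23.5%), against 7.02%. The other ISRE matches were in windows of Tnfrsf17 and Tnfsf13b, and the other GAS matches in windows of Fas, Lta, Tnfrsf18, Tnfrsf1a, Tnfrsf25 and Tnfrsf9. The matched windows of Tnfrsf17, Tnfsf13b, Tnfrsf25 and Tnfrsf9 also lay inside the span of the gene, and those of Fas and Lta in part. A match describes letters and does not show that a factor was bound.

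Receptors held the highest levels of the family, and most ligands lay close to the floor. Per kilobase of exon, Tnfrsf1a, the main TNF receptor with a death domain, was highest, at 58.9 CPM per kilobase in Zelnorm and 53.8 in NC tumours. Ltbr, the lymphotoxin beta receptor, followed with 53.2 in Zelnorm and 55.6 in NC, and their order differed between the groups. Next came Tnfrsf12a, the TWEAK receptor (23.4 in Zelnorm and 21.5 in NC), Tnfrsf11b, which encodes the secreted decoy osteoprotegerin (11 and 11.4), the ligand Tnfsf9 (10.7 and 10.9) and its receptor Tnfrsf9, also called CD137 (10.2 and 7.64). Tnfsf9 was the highest ligand on this scale. Ltb reached 1.71 CPM per kilobase in Zelnorm and 0.719 in NC, and Tnf itself only 0.418 in Zelnorm and 0.184 in NC. Exon lengths came from GENCODE, whereas the authors' annotation is not known, so this scale is approximate.

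**Figure D1:**
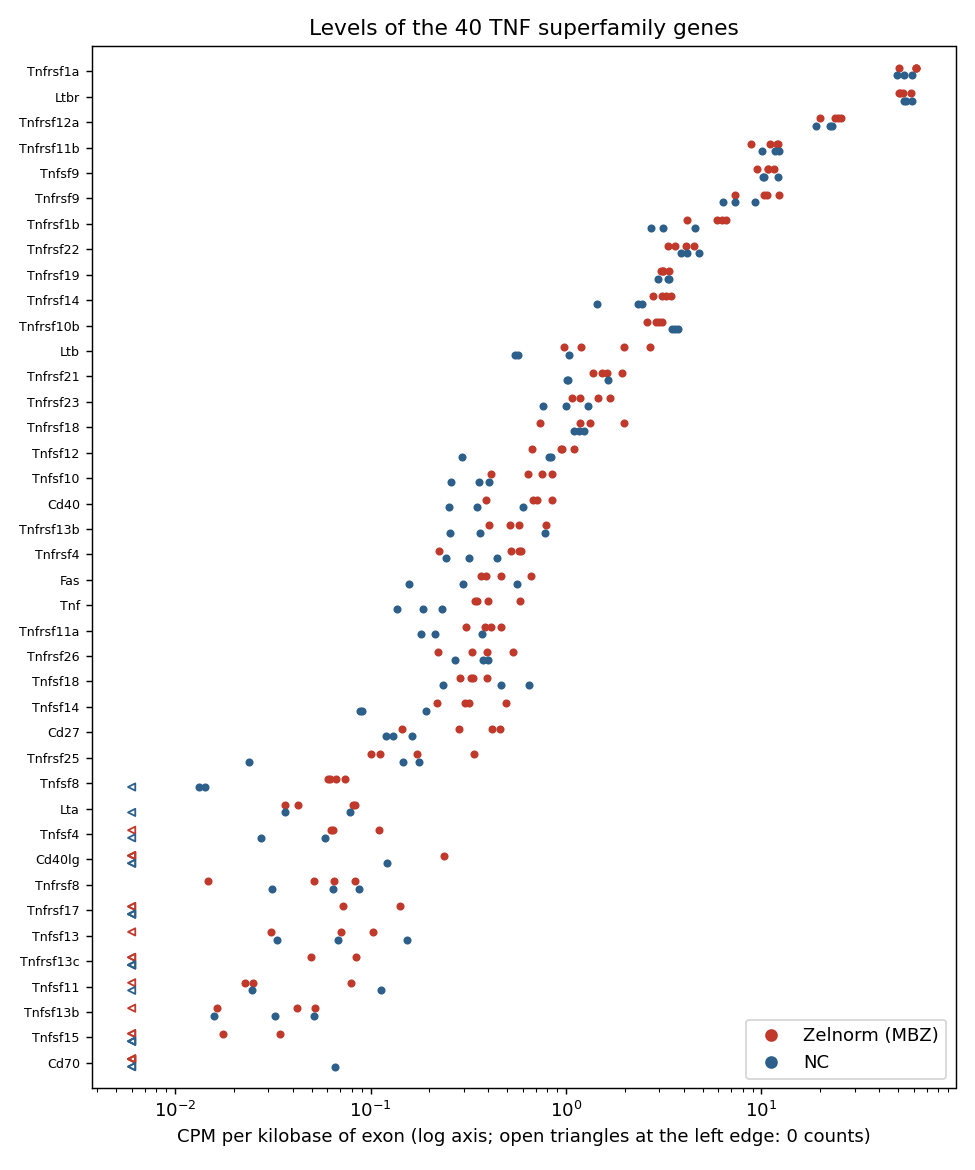
CPM per kilobase of exon (log axis) of the 40 members in each library, with Zelnorm libraries in red above NC libraries in blue on each row and open triangles at the left edge for libraries with 0 counts. Tnfrsf1a and Ltbr lie farthest right in both groups, and the 5 members with at most 3 counts in every library lie near the left edge.

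Of the 40 members, 27 had enough counts to be tested, 7 ligands and 20 receptors. The 9 untested ligands, Cd40lg, Cd70, Lta, Tnfsf11, Tnfsf13, Tnfsf13b, Tnfsf15, Tnfsf4 and Tnfsf8, had 0 to 7 counts in any library. Tnfsf13b, the B cell survival factor BAFF, had 0 to 6 counts in Zelnorm and 2 to 7 in NC libraries, and Cd40lg, the T cell ligand of CD40, had 5 counts in MBZ_11 and 3 in NC_10 and 0 elsewhere. The 4 untested receptors were Tnfrsf25 (4 to 13 counts in Zelnorm and 1 to 8 in NC), Tnfrsf8 (1 to 5 and 2 to 6), Tnfrsf13c (0 to 3 and 0) and Tnfrsf17 (0 to 2 and 0). In an edgeR fit with no filter on low counts, 1 of these 13 genes, Tnfsf8, had an unadjusted p under 0.05, as did 1537 of 16921 genes. It did not pass the adjusted threshold (edgeR adjusted p = 0.362). No difference in any of the 13 was resolved at this depth. Tnfsf12 and Tnfsf13 overlap a locus that joins them, which was listed at 0 in every library, so their counts are uncertain, as are those of the closely related Tnfrsf22, Tnfrsf23 and Tnfrsf26.

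No tested member passed the adjusted threshold in edgeR, and 9 of 27 (33.3%) had an unadjusted p under 0.05, against 10.3% of all genes tested. Of these 9, 8 were higher in Zelnorm tumours (29.6% of the tested members, against 6.94% of all genes) and 1 was lower (against 3.38% of all genes). DESeq2 called 1 of the 28 members to which it gave an adjusted p, Tnfrsf1b, and 1.51% of all such genes. On the genes kept by filterByExpr it called the same member, 1 of 27, and 1.64% of all genes, and limma voom called 0 of 27 and 0.0231%. Higher fitted values were found for 20 of 27 members, against 50.2% of all genes, with a median log2 fold change of 0.41 against 0.000363 over all genes tested. The groups did not overlap for 5 of 27 members (18.5%), against 9.61% of all genes tested. A gene at low counts could enter the test through its Zelnorm libraries alone, so these shares describe the tested members and not the family. With at least 1 CPM required in 3 libraries, 6 of 21 members had an unadjusted p under 0.05, as did 1291 of 12303 genes. Without NC_5 the number was 5 of 27 members, against 977 of 13152 genes. NC_5, MBZ_11 and MBZ_15 were the libraries with the most skeletal muscle transcripts. Without these it was 3 of 25 members, against 547 of 12935 genes, and the median of the members was 0.14. The number over all genes thus fell in both fits as well, from 1341 of 12997. Of the 9 members, Tnfrsf1b, Tnfrsf10b and Tnfsf10 kept an unadjusted p under 0.05 whichever single library was left out. Ltb lost it without NC_5 or NC_6, Tnfrsf14 without MBZ_9 or NC_10, and Tnf without MBZ_13, NC_6 or NC_10. Tnfrsf9 kept it only without MBZ_13 or NC_6. Tnfsf14 lost it without NC_5 or NC_6 and did not pass the filter without MBZ_11, MBZ_13 or MBZ_15. Cd27 lost it without NC_5, NC_6 or NC_10 and did not pass the filter without MBZ_9, MBZ_11 or MBZ_15.

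**Figure D2:**
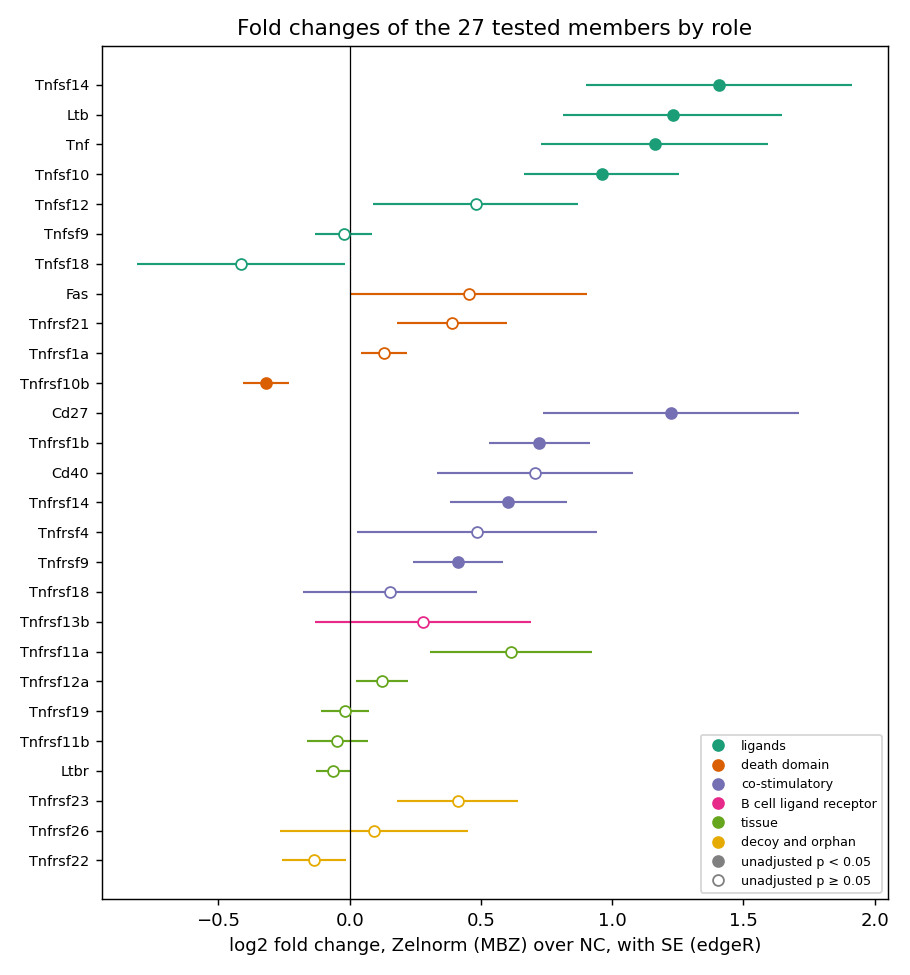
Fitted log2 fold change of the 27 tested members, Zelnorm over NC, with its SE, grouped by role, filled where the unadjusted edgeR p was under 0.05. The values run from -0.41 (Tnfsf18) to 1.41 (Tnfsf14), and 8 of the 9 filled points lie above 0.

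Among the 16 ligands, 7 were tested, and 4 of these were higher in Zelnorm at an unadjusted p under 0.05, against 6.94% of all genes tested. Tnf and Tnfsf14, which are among the 4, had fewer than 10 counts in every NC library and entered the test through their Zelnorm libraries, so this number is no measure of the ligands as a group. Tnfsf10 encodes TRAIL, a ligand that can induce apoptosis through death receptors. It had 3.97, 3.37, 4.44 and 2.18 CPM in MBZ_9, MBZ_11, MBZ_13 and MBZ_15, against 1.90, 2.12 and 1.36 CPM in NC_5, NC_6 and NC_10. The groups did not overlap, though MBZ_15 lay just above the highest NC library. Means were 3.49 ± 0.976 CPM in Zelnorm and 1.79 ± 0.386 CPM in NC (SD, n = 4 and 3), a log2 fold change of 0.96 ± 0.30 (SE; edgeR unadjusted p = 0.00828, adjusted p = 0.295). In the fits that left out each library in turn it stayed between 0.79 and 1.13, and the largest unadjusted edgeR p was 0.0308, without NC_10.

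Tnf, the founding cytokine of the family, was a low-count gene, with 10, 11, 17 and 11 counts in the Zelnorm libraries and 7, 4 and 6 counts in NC. Every Zelnorm library was above every NC library, as in 5.33% of all genes tested. The means were 0.685 ± 0.185 CPM in Zelnorm and 0.302 ± 0.0782 CPM in NC (SD, n = 4 and 3; log2 fold change 1.16 ± 0.43, edgeR unadjusted p = 0.0221, adjusted p = 0.392). Tnfsf14, which encodes LIGHT, a ligand of both Ltbr and Tnfrsf14, had 7, 10, 10 and 18 counts in Zelnorm and 3, 3 and 7 in NC libraries. Once scaled to library size these did not overlap, and MBZ_9 lay closest to NC_10, at 0.403 CPM in MBZ_9 against 0.354 CPM in NC_10 (log2 fold change 1.41 ± 0.51, edgeR unadjusted p = 0.0190, adjusted p = 0.364).

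Ltb encodes lymphotoxin beta, the membrane anchor of the lymphotoxin trimer made by lymphocytes. It had 2.99, 4.08, 1.80 and 1.47 CPM in MBZ_9, MBZ_11, MBZ_13 and MBZ_15, against 0.866, 0.835 and 1.57 CPM in NC_5, NC_6 and NC_10. MBZ_9 and MBZ_11 were high, while MBZ_15 was below NC_10, so the groups overlapped (log2 fold change 1.23 ± 0.42, edgeR unadjusted p = 0.0138, adjusted p = 0.337). Its fold change was 0.92 without MBZ_11 and 1.59 without NC_10. MBZ_9 and MBZ_11 were also the libraries with the most T cell transcripts: 9 markers summed to 22.4 and 23.9 CPM there. The sums were 10.8 CPM in MBZ_13, 10.1 in MBZ_15, 9.53 in NC_5, 9.30 in NC_6 and 5.31 in NC_10. The 7 natural killer cell markers summed to 15.2 and 11.4 CPM in MBZ_9 and MBZ_11, 5.23 and 5.33 CPM in MBZ_13 and MBZ_15, and 3.94 to 6.17 CPM in NC. The 7 B cell markers summed to 6.56 and 6.69 CPM in MBZ_9 and MBZ_11, 3.43 and 2.94 CPM in MBZ_13 and MBZ_15, and 2.54 to 4.30 CPM in NC. MBZ_9 and MBZ_11 were thus highest for all 3 lymphocyte lists, but not for these alone. The 8 dendritic cell markers summed to 21.5 and 23.7 CPM there, 15.9 and 16.3 CPM in MBZ_13 and MBZ_15, and 14.0 to 17.1 CPM in NC. The 10 pan-leukocyte markers summed to 764 and 861 CPM in MBZ_9 and MBZ_11, 624 and 721 CPM in MBZ_13 and MBZ_15, and 569 to 641 CPM in NC. Within NC the order differed: NC_10, the NC library with the highest Ltb, was lowest of all libraries for the T cell and natural killer cell markers. It was the highest NC library for the B cell markers. None of the 9 T cell markers was at 0 in all libraries, and all 9 had higher fitted values in Zelnorm, against 50.2% of all genes. An unadjusted edgeR p under 0.05 was found for 2 of the 9, both higher, against 6.94% of all genes. The part of any of these cell types in the Ltb values was not tested. In bulk RNA of this kind, more cells of a type and more RNA per cell cannot be told apart.

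The remaining tested ligands had small or uncertain differences. Tnfsf9, the ligand of CD137, had 13.8 ± 1.12 CPM in Zelnorm and 14.0 ± 1.41 CPM in NC (log2 fold change -0.02 ± 0.11). Tnfsf12, which encodes TWEAK, had 1.01 to 1.66 CPM in Zelnorm and 0.445 to 1.26 CPM in NC, with NC_6 lowest, and Tnfsf18, the GITR ligand, had 0.592 to 0.812 CPM in Zelnorm and 0.487 to 1.34 CPM in NC.

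**Figure D3:**
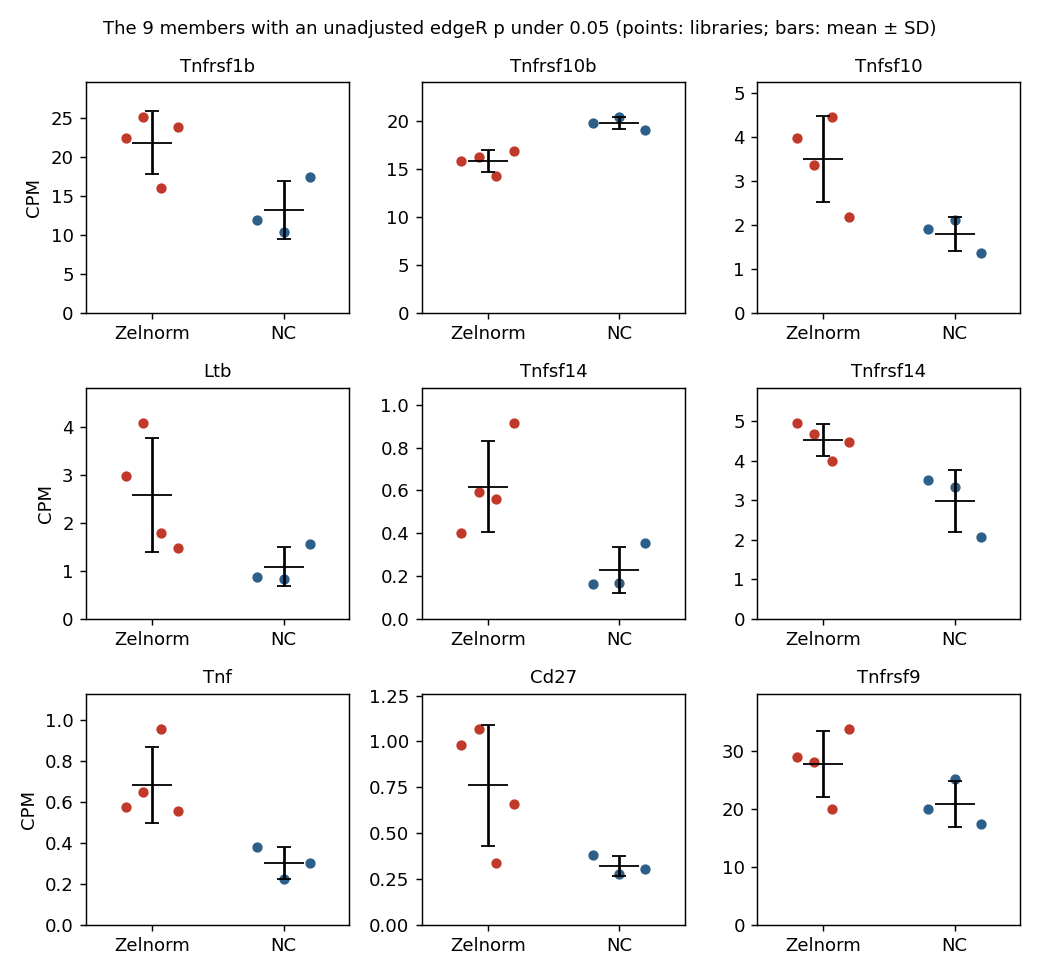
CPM in each library of the 9 members with an unadjusted edgeR p under 0.05, Zelnorm in red and NC in blue, with the mean and SD in black. Tnfrsf10b is the panel in which Zelnorm lies below NC, and in Tnfrsf1b, Ltb, Cd27 and Tnfrsf9 the groups overlap.

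Death domain receptors did not share a direction. Tnfrsf10b, the single full-length death receptor for TRAIL in mice, had 15.8, 16.2, 14.2 and 16.9 CPM in MBZ_9, MBZ_11, MBZ_13 and MBZ_15, against 19.8, 20.3 and 19.1 CPM in NC_5, NC_6 and NC_10. Every Zelnorm library was below every NC library, as in 4.28% of all genes tested, with group means further apart than either SD (15.8 ± 1.12 CPM in Zelnorm and 19.7 ± 0.634 CPM in NC, SD, n = 4 and 3). The log2 fold change was -0.32 ± 0.09 (edgeR unadjusted p = 0.00414, adjusted p = 0.227) and stayed between -0.36 and -0.27 with each library left out. Its ligand Tnfsf10 thus had the opposite sign, and both kept an unadjusted p under 0.05 in every edgeR, DESeq2 and limma voom fit that was run, while neither passed the adjusted threshold in any. Tnfrsf22 and Tnfrsf23, mouse decoy receptors that bind TRAIL, had 16.4 ± 2.26 CPM in Zelnorm and 18.1 ± 1.87 CPM in NC, and 5.35 ± 1.08 CPM in Zelnorm and 4.02 ± 1.05 CPM in NC.

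Tnfrsf1a had 160, 160, 131 and 159 CPM in MBZ_9, MBZ_11, MBZ_13 and MBZ_15, against 153, 139 and 127 CPM in NC_5, NC_6 and NC_10, so the groups overlapped (log2 fold change 0.13 ± 0.09, edgeR unadjusted p = 0.162). Tnfrsf21, also called death receptor 6, had 5.64 to 7.99 CPM in Zelnorm and 4.18 to 6.77 CPM in NC (0.39 ± 0.21), with NC_10 the high NC library, and its fold change without NC_10 was 0.66. Fas, the receptor of Fas ligand, had 14 to 23 counts in Zelnorm and 6 to 23 in NC libraries. Its log2 fold change of 0.45 ± 0.45 was 0.12 without NC_5 and 1.04 without NC_10, so no difference in Fas was resolved.

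The receptors that co-stimulate lymphocytes or antigen-presenting cells had positive fitted values in 7 of 7 tested genes, against 50.2% of all genes tested, and 4 were higher at an unadjusted p under 0.05, against 6.94%. Of the 4, Cd27 had fewer than 10 counts in every NC library and entered the test through its Zelnorm libraries. Tnfrsf1b encodes the second TNF receptor, which lacks a death domain and is found mainly on leukocytes and endothelium. It had 22.5, 25.1, 15.97 and 23.9 CPM in MBZ_9, MBZ_11, MBZ_13 and MBZ_15, against 11.9, 10.4 and 17.4 CPM in NC_5, NC_6 and NC_10. MBZ_13 was the low Zelnorm library and lay below NC_10, the high NC library, while the other Zelnorm libraries lay above all NC libraries. Means were 21.9 ± 4.07 CPM in Zelnorm and 13.2 ± 3.69 CPM in NC (SD, n = 4 and 3), a log2 fold change of 0.72 ± 0.19, the smallest p of the family (edgeR unadjusted p = 0.00360, adjusted p = 0.219). DESeq2 called it at an adjusted p of 0.0204, and edgeR called it without NC_10 (log2 fold change 0.97, adjusted p = 0.0294). The edgeR fit without NC_10 called 161 of 13111 genes, against 4 of 12997 in the main fit. Without NC_5, MBZ_11 and MBZ_15 the fold change of Tnfrsf1b was 0.46.

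Macrophage transcripts also differed between libraries. The 10 macrophage and monocyte markers summed to 436, 634, 440 and 470 CPM in MBZ_9, MBZ_11, MBZ_13 and MBZ_15. In NC_5, NC_6 and NC_10 the sums were 248, 225 and 462 CPM. NC_10 was the highest NC library here as for Tnfrsf1b, but its sum lay above those of MBZ_9 and MBZ_13. MBZ_9 and MBZ_13 had similar sums, while Tnfrsf1b was at 22.5 CPM in MBZ_9 and 15.97 CPM in MBZ_13. None of the 10 macrophage and monocyte markers was at 0 in all libraries, all 10 had higher fitted values in Zelnorm, and 8 of 10 had an unadjusted p under 0.05. Over all genes tested, 50.2% had higher fitted values and 6.94% were higher at that threshold. The 10 pan-leukocyte markers summed to 624 to 861 CPM in Zelnorm and 569 to 641 CPM in NC, with Arhgdib alone averaging 345 CPM in Zelnorm and 328 CPM in NC. All 10 had higher fitted values in Zelnorm (against 50.2% of all genes), and 7 of 10 had an unadjusted p under 0.05 (against 6.94% higher). Their median log2 fold change was 0.71. The 6 endothelial markers summed to 179 to 217 CPM in Zelnorm and 153 to 261 CPM in NC. NC_10 was the highest NC library for these as well, and for the fibroblast (1741 CPM) and neutrophil (12.9 CPM) markers. The part of these cells in the Tnfrsf1b values was not tested.

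**Figure D4:**
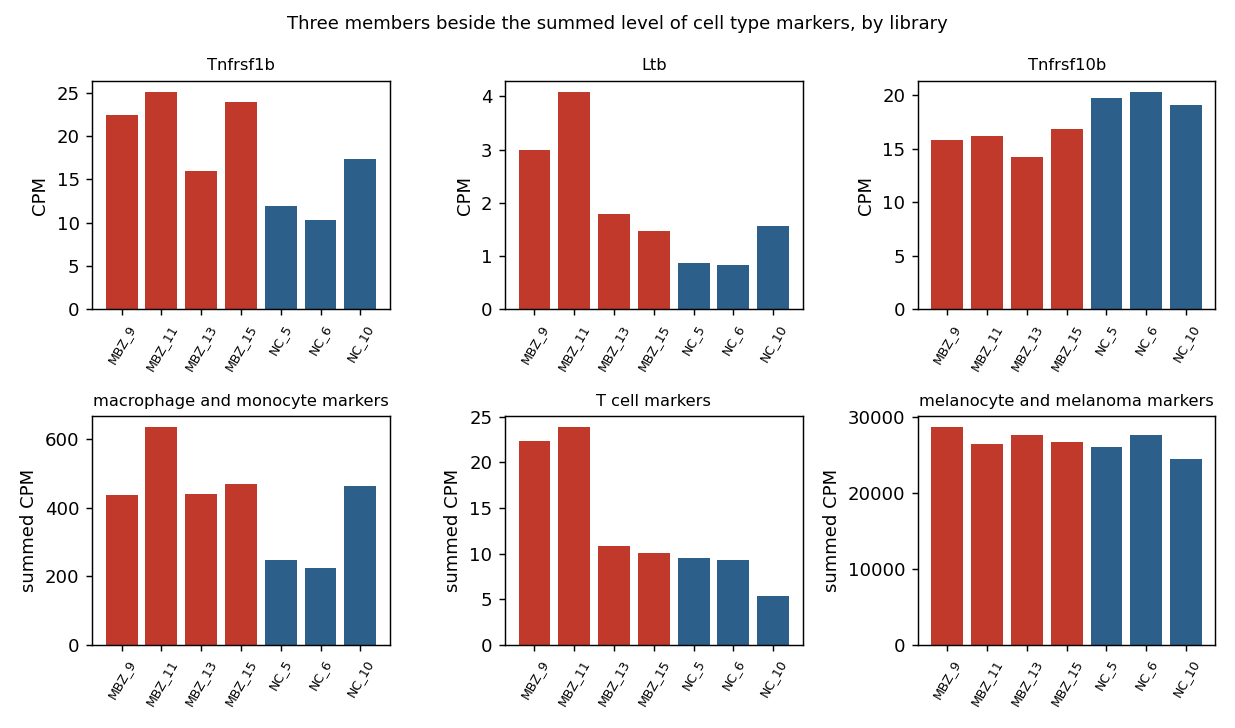
Level by library of Tnfrsf1b, Ltb and Tnfrsf10b in CPM (upper row) and the summed CPM of the macrophage and monocyte, T cell, and melanocyte and melanoma markers (lower row), Zelnorm in red and NC in blue, with bars from 0. NC_10 stands above NC_5 and NC_6 in Tnfrsf1b and in the macrophage sum, and MBZ_9 and MBZ_11 stand above all other libraries in Ltb and in the T cell sum.

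Tnfrsf14 encodes HVEM, the receptor shared by LIGHT and BTLA. It had 4.95, 4.68, 3.99 and 4.47 CPM in MBZ_9, MBZ_11, MBZ_13 and MBZ_15, against 3.52, 3.34 and 2.07 CPM in NC_5, NC_6 and NC_10. The groups did not overlap, with NC_10 far below the other NC libraries (log2 fold change 0.60 ± 0.22, edgeR unadjusted p = 0.0211, adjusted p = 0.384), and without NC_10 the value was 0.40. Tnfrsf9, the co-stimulatory receptor CD137, was the most abundant gene of this role per kilobase. It had 28.9, 28.1, 19.9 and 33.7 CPM in MBZ_9, MBZ_11, MBZ_13 and MBZ_15, against 19.9, 25.2 and 17.3 CPM in NC_5, NC_6 and NC_10, and MBZ_13 lay among the NC libraries (0.41 ± 0.17, edgeR unadjusted p = 0.0366, adjusted p = 0.445).

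Cd27, a co-stimulatory receptor of T and natural killer cells, had 17, 18, 6 and 13 counts in MBZ_9, MBZ_11, MBZ_13 and MBZ_15 and 7, 5 and 6 counts in NC_5, NC_6 and NC_10. MBZ_13 was at the level of the NC libraries (log2 fold change 1.22 ± 0.49, edgeR unadjusted p = 0.0304, adjusted p = 0.425), and the transcript of its ligand, Cd70, was seen as 1 count in NC_6. Cd40, through which T cells activate macrophages, dendritic cells and B cells, had 2.42, 2.90, 2.31 and 1.32 CPM in MBZ_9, MBZ_11, MBZ_13 and MBZ_15, against 1.19, 2.06 and 0.859 CPM in NC_5, NC_6 and NC_10, with MBZ_15 below NC_6 (0.70 ± 0.37, edgeR unadjusted p = 0.0873). Its fold change was 0.45 without NC_10 and 1.11 without NC_6. Tnfrsf4 (OX40) had 6 to 14 counts in Zelnorm and 6 to 12 in NC libraries, and Tnfrsf18 (GITR) had 22 to 51 counts in Zelnorm and 30 to 35 in NC. The log2 fold change of Tnfrsf18, 0.15 ± 0.33, turned to -0.12 without MBZ_11.

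Receptors of stroma and tumour cells were abundant and close to equal between groups. Ltbr had 125 ± 8.38 CPM in Zelnorm and 131 ± 6.54 CPM in NC (SD, n = 4 and 3; log2 fold change -0.06 ± 0.07). Tnfrsf12a had 45.2 ± 4.81 CPM in Zelnorm and 41.6 ± 4.13 CPM in NC (0.12 ± 0.10), Tnfrsf11b had 31.0 ± 4.35 CPM in Zelnorm and 32.0 ± 3.33 CPM in NC (-0.05 ± 0.12), and Tnfrsf19, an orphan receptor also called TROY, had 15.0 ± 0.639 CPM in Zelnorm and 15.2 ± 1.06 CPM in NC (-0.02 ± 0.09). Each of these differences in mean CPM was smaller than the SD within either group. Tnfrsf11a, the receptor RANK of osteoclasts and myeloid cells, stood apart, with 1.84 to 2.78 CPM in Zelnorm and 1.08 to 2.22 CPM in NC (0.62 ± 0.31, edgeR unadjusted p = 0.0739), and NC_10 was again the high NC library. Tnfrsf13b, the B cell receptor TACI, also found on macrophages in mice, was likewise highest in NC_10 among the NC libraries, with 2.22 CPM in NC_10 against 1.03 in NC_5 and 0.724 in NC_6, and with 1.15 to 2.25 CPM in Zelnorm.

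**Figure D5:**
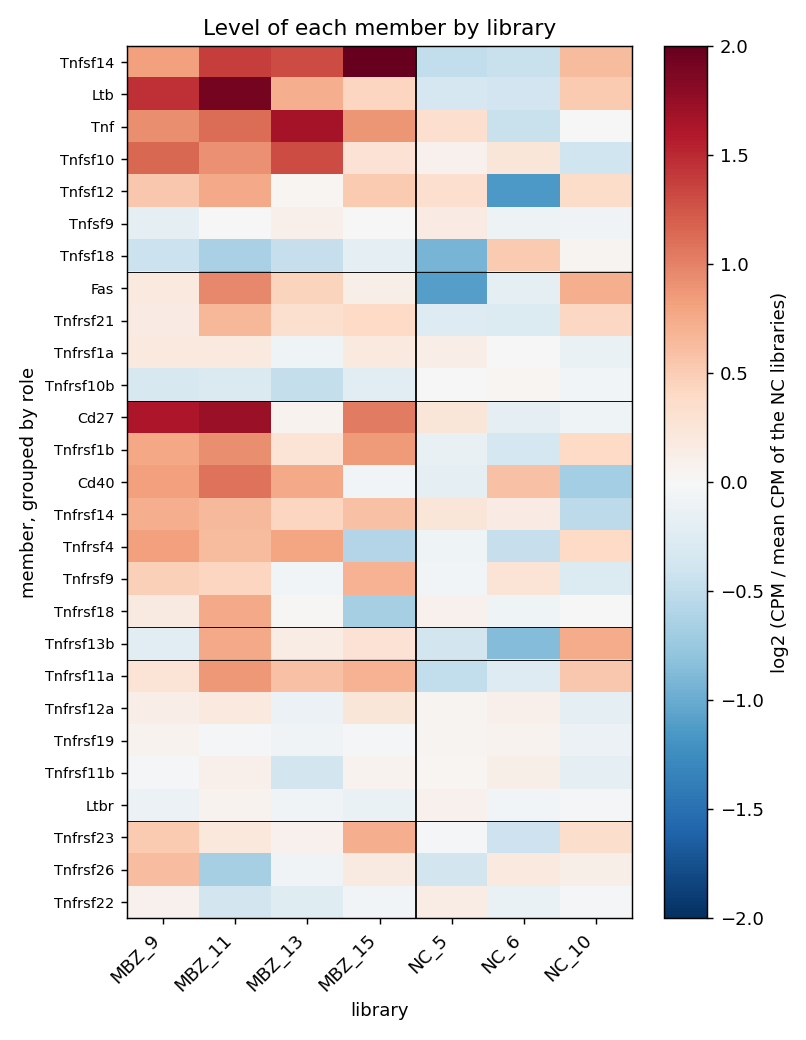
Level of the 27 tested members in each library as log2 of CPM over the mean CPM of the NC libraries (colour), with roles separated by lines and Zelnorm libraries left of NC libraries. Ltbr, Tnfrsf19 and Tnfrsf12a are pale throughout. NC_10 is red for members of several roles, among them Fas, Tnfsf14, Ltb, Tnfrsf4, Tnfrsf1b, Tnfrsf21, Tnfrsf11a and Tnfrsf13b.

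Genes that carry signals from these receptors were read from the same fit. Across 5 pathway lists and the family members outside the symbol rule, 61 of 68 genes were tested, none passed the adjusted threshold in edgeR, and 14 (10 higher, 4 lower) had an unadjusted p under 0.05, or 23.0% against 10.3% of all genes. The median of these 61 genes was 0.05. DESeq2 called 2 of them, Vcam1 higher and Ier3 lower, and 1.51% of all genes to which it gave an adjusted p. Without NC_5 the number at an unadjusted p under 0.05 was 7, and it was 9 without MBZ_9, MBZ_11 or NC_10. Over all genes, 1341 in the main fit, it was 977 without NC_5, 1283 without MBZ_9, 1009 without MBZ_11 and 1455 without NC_10.

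Of 21 adaptors and proximal signalling genes, an unadjusted p under 0.05 was found for 3 with a higher and 2 with a lower level (23.8%, against 10.3% of all genes), with a median of 0.04. Traf1, an adaptor induced by NF-kappaB, had 2.71 ± 0.867 CPM in Zelnorm and 1.54 ± 0.449 CPM in NC (log2 fold change 0.81 ± 0.33), and Mlkl, the executor of necroptosis, had 60.6 ± 8.03 CPM in Zelnorm and 45.5 ± 11.4 CPM in NC (0.41 ± 0.16). Tab1, a partner of the kinase TAK1, was lower, with 29.9 ± 3.05 CPM in Zelnorm and 36 ± 3.5 CPM in NC (-0.27 ± 0.10), as was Traf4 (-0.12 ± 0.05). Their adjusted p in edgeR lay between 0.364 and 0.439.

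Of the 8 genes of linear ubiquitin and its removal, 0 had an unadjusted p under 0.05, and the fitted values ran from -0.06 to 0.15. Tnfaip3, which encodes the inhibitor A20, had 7.56 ± 0.935 CPM in Zelnorm and 7.69 ± 1.89 CPM in NC. Of 12 NF-kappaB genes 1 (8.33%) was higher at an unadjusted p under 0.05, near the share of all genes (6.94%). It was Bcl3, a nuclear cofactor of NF-kappaB, with 8.21 ± 2.18 CPM in Zelnorm and 5.19 ± 1.55 CPM in NC (0.66 ± 0.26). Nfkbia, the inhibitor IκBα, had 19.6 ± 3.21 CPM in Zelnorm and 17.2 ± 0.162 CPM in NC, and Rela had 59.4 ± 2.07 CPM in Zelnorm and 58.3 ± 3.31 CPM in NC.

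Of 18 genes known to be induced by TNF, 14 were tested, and an unadjusted p under 0.05 was found for 5 with a higher and 1 with a lower level (42.9%, against 10.3% of all genes), with a median of 0.28. Vcam1, an adhesion molecule of activated endothelium, had 9.15 ± 2.21 CPM in Zelnorm and 4.49 ± 0.938 CPM in NC (log2 fold change 1.02 ± 0.22, edgeR adjusted p = 0.152), with the groups not overlapping. Ccl2 (0.66 ± 0.22) and Bcl2a1b (0.92 ± 0.32) were higher as well, while Ier3, an immediate early gene, was lower, with 69.8 ± 5.36 CPM in Zelnorm and 104 ± 10.6 CPM in NC (-0.58 ± 0.08, edgeR adjusted p = 0.0559). Sod2 (0.02 ± 0.06), Tnfaip2 (0.01 ± 0.09) and Junb (0.03 ± 0.09) lay near 0. Without MBZ_15, and without NC_10, edgeR called Ier3. Over all genes these fits called 21 of 12878 and 161 of 13111, against 4 of 12997 in the main fit. The 6 fibroblast markers summed to 1185 to 2385 CPM in Zelnorm and 660 to 1741 CPM in NC, and the macrophage sums given above also differed. The part of these cells in the values of Vcam1 and Ccl2 was not tested.

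Of the 5 genes of ligand and receptor shedding, Timp3, an inhibitor of the sheddase ADAM17, was higher in Zelnorm, with 43.3 ± 4.66 CPM in Zelnorm and 33.8 ± 4.59 CPM in NC (0.36 ± 0.11, edgeR unadjusted p = 0.00782, adjusted p = 0.295), and Rhbdf1, which helps ADAM17 to mature, was lower (-0.16 ± 0.07). Adam17 itself had 118 ± 6.54 CPM in Zelnorm and 113 ± 8.31 CPM in NC. Fasl, the ligand of Fas, was outside the symbol rule and had 3 to 8 counts in Zelnorm and 1 to 7 in NC libraries. Of the other relatives outside the rule, Relt, Ngfr and Eda2r were tested and 0 had an unadjusted p under 0.05.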

How the data were processed

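RNA of B16F10 tumours was sequenced from 7 stranded mRNA libraries (TruSeq), per the labels' protocols. The authors deposited raw counts of reads per gene in a single table. The submitters' processing notes name Trimmomatic, HISAT2, Cufflinks, HTSeq and DESeq, and the builds GRCm38 and GRCh38. Versions, annotation and strand setting were not given, and such counting can lose or split reads of related or overlapping genes. Column names gave the group of a library but no replicate number.

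Genes kept by filterByExpr (12997 of 21878) were scaled by TMM and tested with edgeR 4.0.16 (quasi-likelihood; R 4.3.3), with Benjamini-Hochberg adjustment over all of them at 0.05. Each SE came from the F statistic. Every pair of libraries differed by a chi-square of at least 6.53 per degree of freedom, more than sampling noise. Coordinates and upstream windows came from RefSeq tables of GRCm38.p6 (21727 genes matched), and exon lengths from GENCODE. The fits were tested on simulated data in which only genes of higher counts were changed. That test therefore does not speak to low-count members such as Tnf, Tnfsf14 and Cd27.

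Members and lists were chosen with earlier results of these data known. The members described singly were those with an unadjusted p under 0.05 and a set of well-known members whatever their test, with others by range. From each pathway list up to 4 genes of smallest p were eligible, and Tnfaip3, Nfkbia, Rela, Sod2, Tnfaip2, Junb and Adam17 were added after their values were seen. Alternatives were RLE and upper quartile scaling, other filters, DESeq2 1.42.0, limma voom 3.58.1, leaving out each library, and leaving out NC_5, MBZ_11 and MBZ_15. DESeq2 on genes kept by filterByExpr was chosen after seeing the data.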

Additional observations from a re-analysis of the deposited data

Results flagged for a closer look

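In 39 sets of 4 Zelnorm libraries (27 members and 12 marker lists), the lowest or highest library was compared with the others by Dixon's ratio of gap to range, and 2 exceeded the critical value, where chance gives about 1 in 20. Tnfrsf1a had 131 CPM in MBZ_13 against 159 to 160 CPM in the other Zelnorm libraries. The keratinocyte markers summed to 16.6 CPM in MBZ_11 against 0 to 1.63 CPM in the other Zelnorm libraries.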

How the results depend on the processing

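No paired analysis was possible because the count table's columns carry no replicate numbers. Over all genes, edgeR called 4, against 34 with no filter on low counts, 201 by DESeq2, 213 by DESeq2 on the genes kept by filterByExpr, 0 without NC_5, MBZ_11 and MBZ_15 (547 at an unadjusted p under 0.05), and 0 to 161 with each library left out. Members called numbered 0, against 1 by DESeq2 in either run and 0 to 1 with each library left out. Members at an unadjusted p under 0.05 numbered 9, against 3 without NC_5, MBZ_11 and MBZ_15 and 5 to 9 with each library left out. Over all genes this number was 1341 in the main fit and ran from 977 (without NC_5) to 1455 (without NC_10) with each library left out. Pathway genes called numbered 0, against 1 with no filter, 2 by DESeq2 in either run and 0 to 1 with each library left out, while those at an unadjusted p under 0.05 numbered 14, against 7 without the 3 libraries and 7 to 14 with each left out. The median of the tested members, 0.41, was 0.14 without the 3 libraries and 0.23 to 0.45 with each left out. The cause of these shifts was not tested. In fits that left libraries out, the loss of samples and the removal of those very libraries cannot be told apart. Of 19 named members, the sign of 4 changed: Fas (-0.025) and Tnfrsf19 (0.025) without the 3 libraries, and with 1 library left out Tnfrsf11b (-0.13 to 0.047), Tnfrsf18 (-0.12 to 0.35) and Tnfrsf19 (-0.075 to 0.0082). RLE and upper quartile scaling changed no sign or call of a named member. Counts limit Tnf, Tnfsf14, Cd27, Tnfrsf4 and Fas, which had at most 23 counts in any library.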

Other observations

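Many members of the family lie next to each other in the genome, and 22 of the 40 fall into 9 clusters with gaps of at most 200 kb. Ltb, Tnf and Lta share 11.1 kb of chromosome 17 (GRCm38.p6, 35194507 to 35205578): the first 2 were higher in Zelnorm at an unadjusted edgeR p under 0.05, and Lta had 1 to 2 counts in Zelnorm and 0 to 2 in NC libraries. In the other chromosome 17 cluster (57105287 to 57194181), Tnfsf14 had a log2 fold change of 1.41, its neighbour Tnfsf9 one of -0.02, and Cd70 a single count in NC_6. On chromosome 6 (125232620 to 125362483), Cd27 (1.22) lies beside Ltbr (-0.06) and Tnfrsf1a (0.13). On chromosome 4, which holds 9 members, Tnfrsf1b (0.72) shares a stretch of 103 kb with Tnfrsf8, which had at most 6 counts in any library. Whether neighbours differ from each other was not tested.

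Tnfsf8, the CD30 ligand, did not pass filterByExpr and was chosen after its values were seen. It had 4, 4, 5 and 5 counts in MBZ_9, MBZ_11, MBZ_13 and MBZ_15, against 1, 0 and 1 counts in NC_5, NC_6 and NC_10. The unadjusted p was 0.0132 in edgeR with no filter on low counts (adjusted p = 0.362) and 0.0445 in DESeq2, which gave it no adjusted p.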
